A study of Mus musculus with 72 samples.

Results

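Fatty acid oxidation and the targets of the nuclear receptor PPARA were described here as a set of 33 listed genes, found by symbol and then by Ensembl identifier among the 51912 genes of a liver RNA-seq count table. All 33 passed the filter on low counts, as did 19362 genes of the table. The study asked how lowering dietary protein acts on mice that differ in strain and sex. Livers came from C57BL/6J and DBA/2J mice, both inbred strains, as males (M) and females (F). At 10 weeks of age each mouse was put on 1 of 3 diets, named Control, Medium Protein and Low Protein, and it stayed on it for 13 weeks. That gave 12 groups of 6 mice, 72 libraries in all. Animal codes do not recur within a strain and sex, though some recur between them. Some animals of the same group have codes that share the number and differ in the letter, and the labels do not say what either marks. Every animal was kept at about 22 °C, was 23 weeks old at death and had been fasted for 16 h. None of the groups is labelled with a transgene or a drug. The composition of the diets is not given in the sources used here, and the third strain of the study was not analysed here.

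In the liver, fatty acids taken up from blood are bound by cytosolic carriers, activated to acyl-CoA, passed through the carnitine shuttle into mitochondria and shortened by repeated rounds of dehydrogenation, hydration, a second dehydrogenation and thiolysis. Peroxisomes run a parallel pathway for long or unusual chains, and acyl-CoA thioesterases release free fatty acids and coenzyme A again. PPARA, a receptor activated by fatty acids, binds with RXR to DNA elements made of a pair of AGGTCA-like motifs with 1 base between them (DR1), and is best known in hepatocytes for switching these genes on during fasting. All livers here were taken in that fasted state.

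The DNA just upstream of the members shows how such an element looks and how rarely these windows hold a close one. RefSeq promoter windows on GRCm38.p6 (250 bases before to 50 after an annotated start) matched 28 of the 33 members, in 30 windows; none was matched for Crat, Acaa2, Decr1, Angptl4 or Vnn1. Both strands were searched for AGGTCANAGGTCA, with the letter N left free. With at most 2 mismatches a match lay in 4 of 30 member windows (13.3%) and in 3.86% of the 32851 windows of all genes. With at most 3 mismatches these shares were 43.3% and 24.6%. The 4 closest matches and that of Acot2 are given below on the strand that carries them, with letters that match the motif in capitals. On the window's own strand the Fabp1 match (1 mismatch) begins 67 bases before the start, the Cd36 match 63 bases, the Acot4 match 13 bases and the Slc25a20 match 7 bases after it, each with 2 mismatches. The Acot2 match, with 3 mismatches and shown because Acot2 responded most to diet, begins 58 bases before the start.
Fabp1 match: AGGcCATAGGTCA
Cd36 match: AaGTCAGAGGcCA
Acot4 match: cGGcCAAAGGTCA
Slc25a20 match: AGGTgAAAGGTCg
Acot2 match: AGcaCACAGcTCA
The 250 bases upstream of Fabp1, the member with the closest match and the highest level, lie at chr6:71199629-71199878 and those of Acot2, the member with the largest diet response, at chr12:83987611-83987860. Both are on the plus strand, and capitals mark the match as it reads on that strand.
Fabp1 upstream: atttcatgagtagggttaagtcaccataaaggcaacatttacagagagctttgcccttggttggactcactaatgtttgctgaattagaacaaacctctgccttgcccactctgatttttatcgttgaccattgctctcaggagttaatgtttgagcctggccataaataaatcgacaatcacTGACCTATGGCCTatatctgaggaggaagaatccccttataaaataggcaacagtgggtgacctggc
Acot2 upstream: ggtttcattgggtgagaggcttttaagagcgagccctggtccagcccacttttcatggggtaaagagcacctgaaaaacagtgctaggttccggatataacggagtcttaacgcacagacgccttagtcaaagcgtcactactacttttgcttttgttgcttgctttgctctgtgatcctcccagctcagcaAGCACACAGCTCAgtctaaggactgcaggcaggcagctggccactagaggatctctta
Of the 7 members that rose on Low Protein in C57BL/6J males, 6 had a window, and Acot2 alone among these had a match with at most 3 mismatches. A match describes letters in a window and is not a measured binding site.

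The tissue was hepatocyte-rich: Alb had a median of 48501 CPM (counts scaled to a common library total with TMM factors), and summed hepatocyte markers ranged from 32229 to 79675 CPM. Summed markers of skeletal muscle, a tissue known for Fitm1, stayed at or below 1.50 CPM. Of the adipocyte markers, Plin1, Lep and Retn had a median of 0 and Plin4 48.2 CPM. Intestinal Sis and Lct, markers of the tissue best known for Fabp2, also had a median of 0, but Apoa4 of the same list, which liver also makes, had a median of 850.3 CPM and set its summed level of 135 to 2718 CPM. Library totals ran from 26.9 to 38.4 M counts (median 32.4 M), and the 33 members together took 0.586% to 1.72% of them. In 4 libraries AY036118, CT010467.1 and Lars2, loci that overlap ribosomal RNA, took 9.66% to 34.9% of counts, against a median of 0.0207%. These were Control replicates 1 and 6 and Medium Protein replicate 6 of C57BL/6J males and Control replicate 4 of DBA/2J males. With library totals in place of TMM factors, the median of all genes moved from 0.01 to 0.26 (log2) in the Low Protein comparison of C57BL/6J males, and the share of all calls that were higher from 41.7% to 94.4%. Changes are therefore stated relative to the TMM scaling. In 2 further libraries many members were low together. Low Protein replicate 1 of C57BL/6J females was the lowest of its 6 for 28 of 33 members and had 976 CPM of summed Kupffer cell and macrophage markers, the highest of all libraries, against a group median of 229 CPM. Control replicate 1 of C57BL/6J females was the lowest of its group for 29 members, with 339 CPM of these markers against a group median of 235 CPM. Control replicate 3 of the same group had more of them, 499 CPM, and was the lowest for 2 members. The part of these markers in the members' values was not tested, and in bulk liver fewer cells of a type and less RNA per cell cannot be told apart.

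Per kilobase of exon, member levels spanned from Fabp1, the main cytosolic fatty acid carrier of hepatocytes, at a mean of 3994 CPM per kb over 72 libraries, to Fitm1, a lipid droplet-forming protein, at 5.16 CPM per kb. Acaa1b (499.9 CPM per kb) and Ehhadh (398 CPM per kb) of the peroxisome and Acaa2 (395 CPM per kb) of the mitochondrion came next. The thioesterases were low on this scale, at 32.7 CPM per kb for Acot3, 29.3 for Acot1, 19.8 for Acot4 and 10.7 for Acot2. Ppara itself had 49.7 CPM per kb. How much of a member's variation lay between the 12 groups differed widely: 89.8% for Slc25a20, 89.1% for Fitm1 and 83.9% for Eci2, but 13.4% for Hadh and 16.5% for Etfdh.

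On Low Protein, C57BL/6J males had more mRNA for 3 of the 5 peroxisomal members and 2 of the 4 thioesterases. The 3 were the β-oxidation enzymes Ehhadh and Eci2 and Pex11a, a protein of peroxisome division. In the carnitine shuttle and mitochondrial β-oxidation Hadha alone passed the test. Of the 33 members 7 rose and 0 fell, against 4.08% and 5.70% of all genes tested, by edgeR's quasi-likelihood test with Benjamini-Hochberg adjustment over all genes at 0.05. The members' median log2 fold change was 0.16, beside 0.01 for all genes. Of the members 25 of 33 were positive, beside 51.5% of all genes. Members varied together between animals, as described below, so their signs are not independent. The members were also chosen with earlier results of these data known, which limits the comparison with all genes. The 7 were the thioesterases Acot2 and Acot1, the peroxisomal genes Ehhadh, Pex11a and Eci2, the mitochondrial Hadha and the pantetheinase Vnn1. The plots by library show the first 5 of these and Angptl4. Markers of red blood cells moved in the same comparison: 4 of 6 rose, and their summed level was 126 to 259 CPM on Control and 168 to 478 CPM on Low Protein. Of 6 hepatocyte markers 1 fell. The part of either in the members' values was not tested. With library totals as the scaling 22 members were called, and the median was 0.41 for all 33 members and 0.26 for all genes. With only the compared groups in the fit 13 were called. The shares of all genes given above belong to the main fit. In the next paragraphs, 3 levels in a row are the lowest, the median and the highest of 6 animals in CPM, and changes are log2 fold changes ± SE from the same fit.

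**Figure D1:**
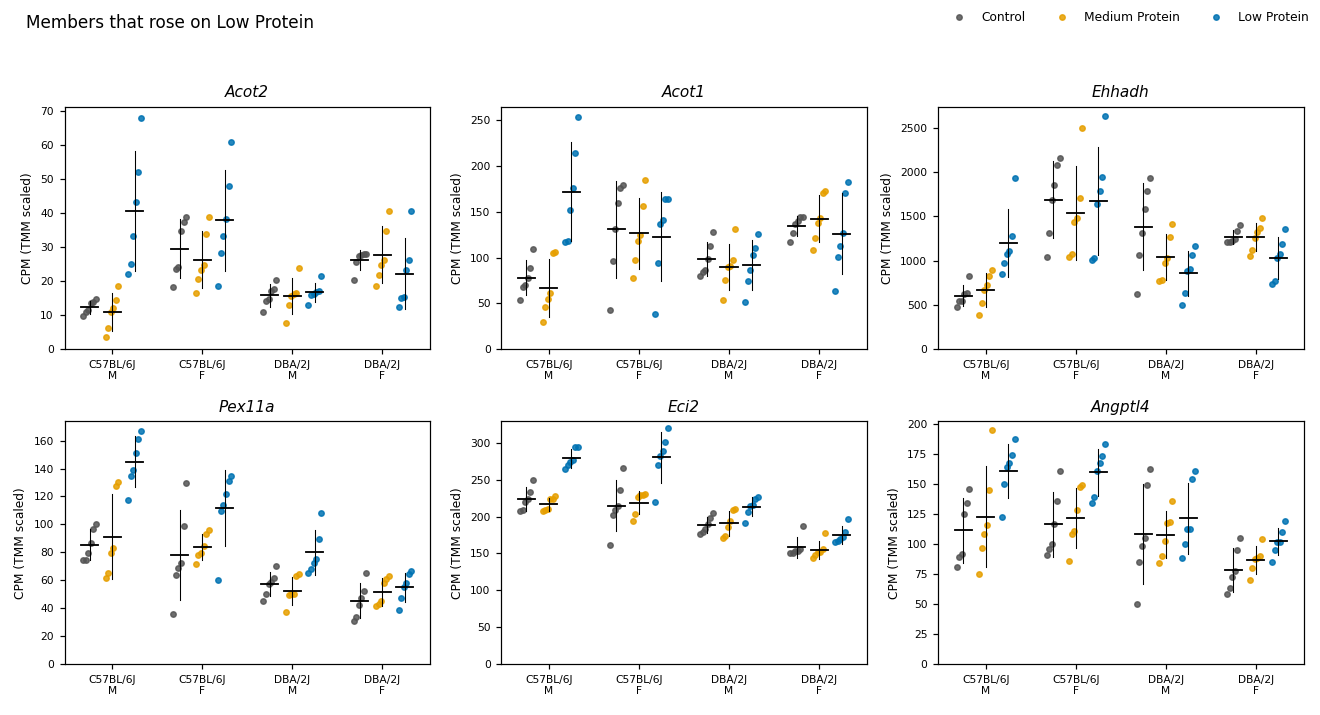
Levels of 6 members that rose on Low Protein, in C57BL/6J males or on average over the groups: CPM after TMM scaling (vertical axis, linear from 0) for each of 72 libraries, by strain and sex and coloured by diet, with the mean (bar) and SD (line) of 6 animals. In C57BL/6J males all Low Protein points of Acot2, Acot1, Ehhadh, Pex11a and Eci2 lie above the Control points, and the DBA/2J groups show no such separation. The share of all genes with such a separation was not counted.

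Acot2, the mitochondrial matrix thioesterase (chr12:83987861-83993873 on GRCm38, plus strand), changed most. In C57BL/6J males it measured 9.72, 12.5 and 14.6 CPM on Control and 21.9, 38.2 and 68.0 CPM on Low Protein. The groups did not overlap, and the change was 1.71 ± 0.28 (3.28-fold, adjusted p = 1.52e-05). Acot1, its cytosolic neighbour (chr12:84009490-84018371), measured 54.1, 73.9 and 109.6 CPM and 117, 164 and 254 CPM, again without overlap. Its change was 1.14 ± 0.28 (adjusted p = 0.00327). Transcripts of Acot1 and Acot2 share sequence: 27.7% of the 50-base words of Acot2 and 19.2% of those of Acot1 occur in another gene, mainly in each other, so the split of reads between them is uncertain. The peroxisomal thioesterases of the cluster did not pass the test. Acot4 had a change of 0.56 ± 0.25 (adjusted p = 0.155) and Acot3 of 0.60 ± 0.45 (adjusted p = 0.463), and their Control and Low Protein animals overlapped.

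Of the 5 peroxisomal members 3 rose, the β-oxidation enzymes Ehhadh and Eci2 and also Pex11a. Ehhadh, the bifunctional enzyme that hydrates and dehydrogenates acyl-CoA in peroxisomes (chr16:21761287-21787807, minus strand), measured 482, 580.2 and 823 CPM on Control and 849, 1092 and 1928 CPM on Low Protein, a change of 0.99 ± 0.23 (adjusted p = 0.00193). Pex11a, a membrane protein of peroxisome division, measured 74.3, 83.4 and 100.3 CPM and 117, 145 and 167 CPM and changed by 0.76 ± 0.19 (adjusted p = 0.00445). Eci2, an isomerase that moves double bonds for oxidation, measured 207, 222 and 249 CPM and 264, 276 and 295 CPM. Its change was small, 0.32 ± 0.07 (adjusted p = 0.00193). None of these 3 genes overlapped between the diets, but neither did Decr1 and Fabp1, which were not called. How many of all genes lacked overlap was not counted. The thiolases gave 0.52 ± 0.20 for Acaa1b (adjusted p = 0.0824) and -0.02 ± 0.09 for Acaa1a (adjusted p = 0.94). These also share 50-base words, 30.5% of those of Acaa1b and 12.9% of those of Acaa1a.

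The mitochondrial chain moved little. None of the 4 carnitine shuttle members passed the test, with log2 changes from -0.05 to 0.11. Cpt1a, the rate-controlling carnitine acyltransferase of the outer membrane, measured 748, 805 and 933 CPM on Control and 645, 796 and 894 CPM on Low Protein, and the groups overlapped. The 4 acyl-CoA dehydrogenases and Etfdh, which hands their electrons to the respiratory chain, lay between -0.11 and 0.20, none past the threshold. Among the later steps Hadha, the α subunit of the trifunctional protein, rose from 353, 363 and 407 CPM to 406, 459 and 497 CPM. The lowest Low Protein animal lay just under the highest Control animal, and the change was 0.30 ± 0.10 (adjusted p = 0.0367). The β subunit Hadhb, 19.7% of whose 50-base words occur in another gene, mainly Gm13910, had a value of 0.22 ± 0.10 (adjusted p = 0.169). Decr1, the reductase for unsaturated chains, had no overlap between diets, at 223, 241 and 249 CPM and 265, 277 and 290.2 CPM, and still missed the threshold (0.23 ± 0.10, adjusted p = 0.172). Hadha lost its call without 9 of the 12 libraries in turn (adjusted p up to 0.0849), all but Control replicate 3 and Low Protein replicates 1 and 3, and without the 4 libraries rich in ribosomal loci (adjusted p = 0.134).

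**Figure D2:**
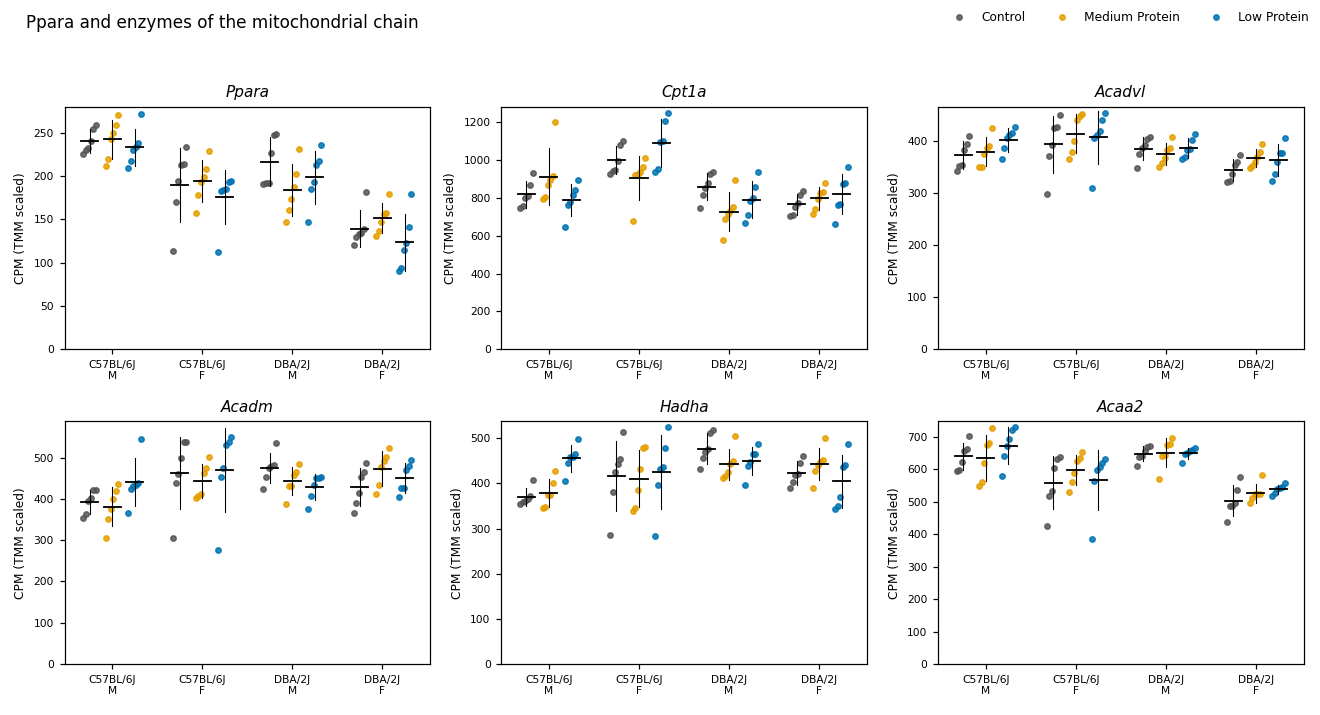
Levels of Ppara and 5 enzymes of mitochondrial β-oxidation: CPM after TMM scaling (vertical axis, linear from 0) per library, by strain, sex and diet, with mean (bar) and SD (line) of 6 animals. The diet groups of each strain and sex lie close together, and Ppara separates DBA/2J males from females more than it separates any diet.

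Ppara mRNA did not pass the test for either diet in any strain or sex. In C57BL/6J males it measured 226, 236 and 259.6 CPM on Control and 209.6, 232 and 271 CPM on Low Protein, and the ranges overlapped almost fully. Fabp1 measured 1376, 1544 and 2061 CPM and 2377, 2553 and 2773 CPM in these males, with no overlap, and just missed the threshold (0.66 ± 0.23, adjusted p = 0.0508); it passed in 7 of 12 alternative fits. Cd36, a fatty acid transporter of the cell membrane, (-0.18 ± 0.28) and Fabp2 (-0.02 ± 0.15) gave no call. Of the remaining PPARA targets, Vnn1, which yields pantothenic acid and cysteamine, measured 109.8, 121 and 143 CPM and 168, 205 and 227 CPM without overlap and rose by 0.69 ± 0.22 (adjusted p = 0.0335). Without the 4 libraries rich in ribosomal loci its adjusted p was 0.0801, and omitting any of Control replicates 1 to 4 or Low Protein replicates 3, 5 and 6 ended the call (adjusted p up to 0.0710). Angptl4, an inhibitor of lipoprotein lipase, gave 0.53 ± 0.19 (adjusted p = 0.0575). The authors' deposited table listed Angptl4 at an adjusted p of 0.0445 for the same comparison. Aldh3a2, which oxidises fatty aldehydes, (0.46 ± 0.21), Fitm1 (-0.22 ± 0.35) and Bdh1, the last enzyme of ketone body formation, (0.04 ± 0.15) were not called. Acot2, Acot1, Ehhadh, Eci2 and Pex11a kept their calls in C57BL/6J males in each of the 12 alternative fits and without each of the 12 libraries in turn. Without the 4 libraries rich in ribosomal loci these 5 were the only members called.

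In C57BL/6J females 2 members rose and 0 fell on Low Protein, beside 1.47% and 1.78% of all genes. Both were peroxisomal. Eci2 measured 162, 211 and 266 CPM on Control and 219.7, 285 and 320.2 CPM on Low Protein, an increase of 0.38 ± 0.07 (adjusted p = 0.000929) with overlapping ranges. Acaa1a measured 125, 163 and 211 CPM and 183, 198 and 236 CPM and changed by 0.31 ± 0.09 (adjusted p = 0.0482). Its call ended without any single library other than Control replicates 3 and 4 and Low Protein replicate 1 (adjusted p up to 0.148), and without the 2 female libraries low in many members (adjusted p = 0.119). Pex11a (0.51 ± 0.19) and Angptl4 (0.45 ± 0.19) had positive values that did not pass (adjusted p = 0.122 and 0.179). Acot2 (0.36 ± 0.27), Acot1 (-0.09 ± 0.27) and Ehhadh (-0.02 ± 0.23), which rose in males, gave no call in females. With only the compared groups in the fit, neither Eci2 (adjusted p = 0.171) nor Acaa1a (0.294) passed.

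No member passed the test on Low Protein in DBA/2J mice by edgeR's quasi-likelihood test, limma-voom or DESeq2. In DBA/2J males 0.0465% of all genes were higher and 0.0465% lower, and in DBA/2J females 0.609% and 0.207%, so few genes of any kind passed there. Of all genes, 7.62% in males and 11.5% in females had an unadjusted p below 0.05. Among the members there were 5 in males and 3 in females. In males these included Ehhadh with a negative change: it measured 618, 1446 and 1937 CPM on Control and 494, 893 and 1161 CPM on Low Protein, with overlap (-0.69 ± 0.23, adjusted p = 0.343). Eci2 (0.18 ± 0.07) and Pex11a (0.48 ± 0.19) had positive values there, as did Fitm1 (0.74 ± 0.37), and Hadhb (-0.22 ± 0.10) a negative one. In females they were Acaa1b (-0.52 ± 0.20), Bdh1 (-0.32 ± 0.15) and Angptl4 (0.38 ± 0.19), with adjusted p of 0.24, 0.376 and 0.43.

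Averaged over the 4 combinations of strain and sex, 4 members rose on Low Protein and 0 fell, beside 3.84% and 4.17% of all genes. Eci2 changed by 0.26 ± 0.04 (adjusted p = 2.21e-06) and Pex11a by 0.51 ± 0.09 (adjusted p = 0.000201). Angptl4 changed by 0.38 ± 0.09 (adjusted p = 0.00483), and Acot2 by 0.48 ± 0.14 (adjusted p = 0.0178). Over the 4 combinations Eci2 ranged from 0.14 to 0.38, Pex11a from 0.28 to 0.76 and Angptl4 from 0.17 to 0.53. Acot2 ranged from -0.24 in DBA/2J females to 1.71 in C57BL/6J males. With library totals as the scaling, 11 members were called. Of the adipocyte markers 1 of 2 tested also rose, and its part was not tested.

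Differences of the Low Protein effect between groups had a test of their own. Between the sexes of C57BL/6J, 2 members had a larger effect in males and 0 a smaller one, beside 1.85% and 2.71% of all genes. These were Acot2, with a difference of 1.36 ± 0.39 (adjusted p = 0.0288), and Acot1, with 1.23 ± 0.39 (adjusted p = 0.0496). With only the compared groups in the fit 0 members passed. With library totals 8 passed, and the median was 0.29 for all 33 members and 0.24 for all genes. In the same comparison 1 of 6 red blood cell markers had a larger effect in males (list median 1.01) and 1 of 6 hepatocyte markers a smaller one, and their part was not tested. Acot2 and Acot1 both lay close to the threshold, and neither passed without the 4 libraries rich in ribosomal loci (adjusted p = 0.0528 for Acot2 and 0.0924 for Acot1). Omitting single libraries ended the Acot1 call in 17 of 24 cases, all but Control 3 and Low Protein 1 and 2 of males and Control 1 and 3 and Low Protein 5 and 6 of females (adjusted p up to 0.118). The Acot2 call ended in 7 of 24 cases: without Control 4, Low Protein 5 or Low Protein 6 of males, or Control 5, Control 6, Low Protein 1 or Low Protein 3 of females (adjusted p up to 0.0893). Ehhadh had a difference of 1.01 ± 0.32 and just missed the threshold (adjusted p = 0.0528). Between the strains, Ehhadh (-1.68 ± 0.32, adjusted p = 0.000914) and Acot2 (-1.63 ± 0.39, adjusted p = 0.0105) had a lower effect in DBA/2J than in C57BL/6J males, 2 of 33 members beside 0.909% of all genes, and 0 had a higher one, beside 1.97%. Neither call was lost without any of 24 single libraries or in any of 12 alternatives. The count of members called reached 5 with library totals and 7 with only the compared groups, with no share of all genes beside either. With library totals the median was -0.40 for all 33 members and -0.17 for all genes. Of 6 red blood cell markers 1 had a lower effect in DBA/2J males, and its part was not tested. For Ehhadh the values had opposite signs, 0.99 in C57BL/6J and -0.69 in DBA/2J males. In females no member's effect differed between strains (0.031% of all genes higher, 0.062% lower). At an unadjusted p below 0.05 there were 3 members, beside 11.1% of all genes. DESeq2 called 1 member there, and limma-voom called 0. The sexes of DBA/2J gave no call among members or among all genes (0% in each direction), with 0 members and 1478 genes at an unadjusted p below 0.05; DESeq2 and limma-voom called 0 members too.

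The levels behind these differences were as follows. Ehhadh had a mean of 606 ± 119.6 CPM (SD, n = 6) in C57BL/6J males on Control, 1204 ± 383 CPM on Low Protein and 1689.9 ± 437 CPM in C57BL/6J females on Control. Acot2 went from 12.4 ± 1.91 CPM to 40.5 ± 17.5 CPM in males, and stood at 29.5 ± 8.55 CPM in Control females. Among the 4 Control groups both genes were thus lowest in C57BL/6J males. Control males of DBA/2J had 1382 ± 490.3 CPM of Ehhadh and 15.8 ± 3.27 CPM of Acot2. These comparisons of sex and diet share the Control animals of C57BL/6J males.

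Medium Protein gave no called member in any strain or sex by edgeR, limma-voom or DESeq2. All genes gave calls of 0.305% higher and 0.114% lower in C57BL/6J males, 0% and 0% in C57BL/6J females (1465 genes at an unadjusted p below 0.05), 0% and 0.00516% in DBA/2J males and 0.00516% and 0% in DBA/2J females. Exactly 1 member had an unadjusted p below 0.05 in each. The share of all genes at that threshold was 10.2% in C57BL/6J males and 7.57% in C57BL/6J females. It was 3.97% in DBA/2J males and 2.67% in DBA/2J females. The members were Crat, the carnitine acetyltransferase, in C57BL/6J males (-0.43 ± 0.13) and Acaa1a in C57BL/6J females (0.26 ± 0.09). In DBA/2J they were Cpt1a in males (-0.24 ± 0.09) and Cd36 in females (0.76 ± 0.28). In DBA/2J males 30 of 33 members had negative values, with a median of -0.10 beside 0.00 for all genes. In DBA/2J females 28 had positive values, with a median of 0.07. Of all genes 50.7% were positive in these males and 50.2% in these females. Because members varied together between animals, their signs are not independent. The adjusted p of the 4 named members were 0.11, 0.476, 1 and 1. The mean over the 4 combinations called 0 members and 0% of genes in either direction, with 0 members and 1040 genes at an unadjusted p below 0.05. The members that rose on Low Protein in C57BL/6J males were near Control on Medium Protein: Acot2 measured 3.44, 11.4 and 18.6 CPM and Ehhadh 385, 692 and 896 CPM, both overlapping Control. The Medium and Low Protein comparisons share their Control animals.

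**Figure D3:**
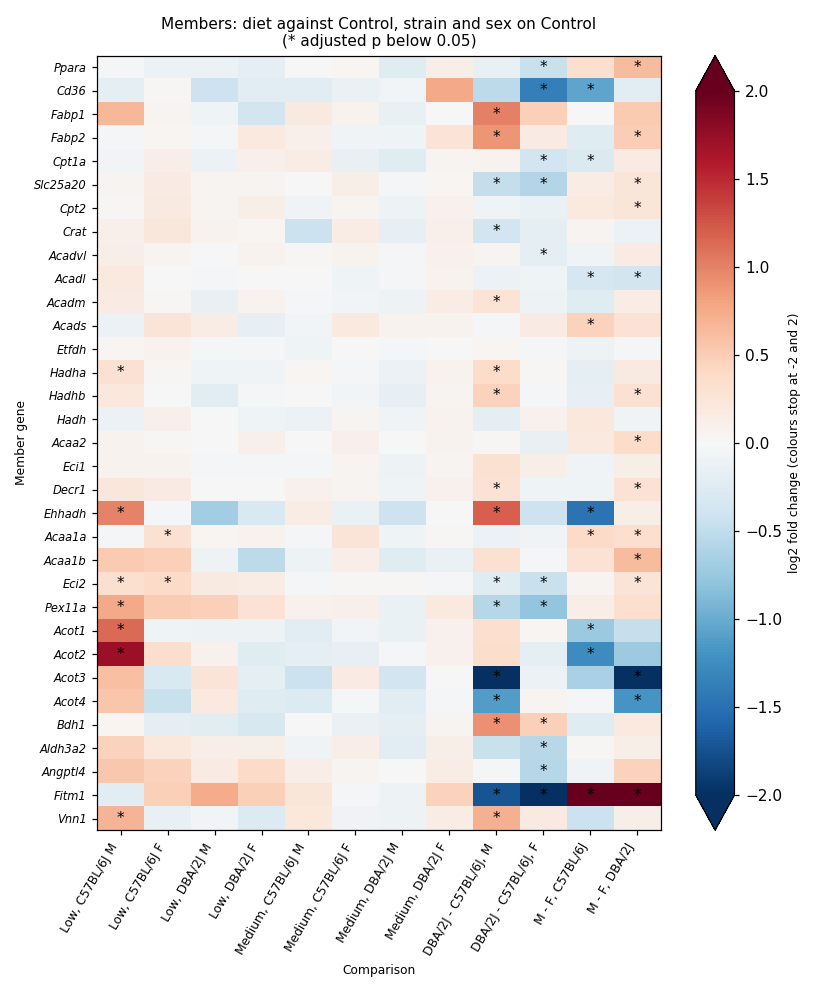
Log2 fold changes of the 33 members (vertical axis, ordered by role) in 12 comparisons (horizontal axis): Low and Medium Protein against Control in each strain and sex, then DBA/2J minus C57BL/6J and male minus female on Control; a star marks an adjusted p below 0.05 and colours stop at -2 and 2. Stars are few in the 8 diet columns (7 in C57BL/6J males and 2 in C57BL/6J females, all on Low Protein) and common in the strain and sex columns. Calls among all genes tested were also fewer for diet than for strain or sex.

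More members differed by strain or sex on the Control diet than by diet, and the same held for all genes tested. In males 9 members were higher and 7 lower in DBA/2J than in C57BL/6J, beside 14.9% and 15.6% of all genes. In females 1 was higher and 10 lower, beside 13.8% and 14.0%. Males exceeded females in 3 members and fell short in 6 in C57BL/6J, beside 11.6% and 9.18% of genes. In DBA/2J 11 members were higher and 3 lower in males, beside 10.4% and 7.85%. With library totals as the scaling, the median of all genes moved to -0.35 in the sex comparison of C57BL/6J and to -0.29 in that of DBA/2J, and the members called there were 18 and 10. Higher values in males of about these sizes, such as those of Acaa1a, Acaa2, Hadhb and Decr1 below, therefore rest on the TMM scaling. Markers of other cells moved in these comparisons too. Between strains in males 2 of 6 cholangiocyte markers, both adipocyte markers tested, 2 of 6 B and T cell markers and all 3 ribosomal-like loci tested (median -2.22) were lower in DBA/2J, and 3 of 8 endothelial markers were higher. Stellate cell markers gave 2 higher and 1 lower of 8, red blood cell markers 1 and 2 of 6 and hepatocyte markers 1 and 1 of 6. Between strains in females 4 of 6 red blood cell, 4 of 8 stellate cell, 2 of 8 Kupffer cell, 2 of 6 cholangiocyte and 2 of 6 hepatocyte markers were lower in DBA/2J, as was 1 each of the endothelial, adipocyte and lymphocyte lists, and 1 stellate cell marker was higher. In C57BL/6J males 2 of 8 Kupffer cell and 2 of 8 stellate cell markers were lower than in females, as was 1 each of the cholangiocyte, intestinal and lymphocyte lists, and 1 each of the hepatocyte, adipocyte, red blood cell and ribosomal-like lists was higher. In DBA/2J males 3 of 6 red blood cell markers and 1 each of the endothelial and cholangiocyte lists were higher than in females, and 1 each of the stellate cell, lymphocyte and ribosomal-like lists was lower. Their part in the members' differences was not tested. The plots of strain and sex differences show 6 of these members.

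**Figure D4:**
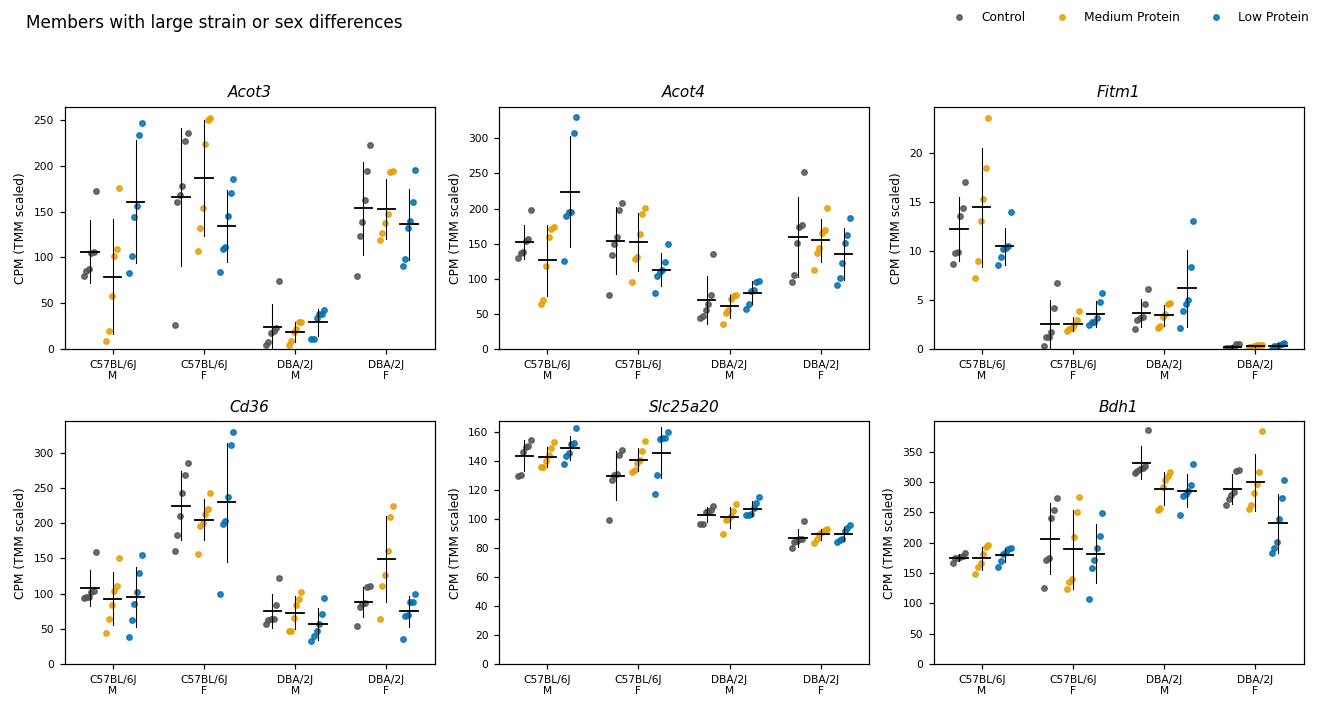
Levels of 6 members with large strain or sex differences: CPM after TMM scaling (vertical axis, linear from 0) per library, by strain, sex and diet, with mean (bar) and SD (line) of 6 animals. Acot3 and Acot4 are low in DBA/2J males on every diet, Cd36 is highest in C57BL/6J females, and Fitm1 is near 0 in DBA/2J females.

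By role, Ppara was lower in DBA/2J than in C57BL/6J females, at 120.5, 133 and 181 CPM against 114, 203 and 234 CPM (-0.44 ± 0.13, adjusted p = 0.00681). It was also higher in DBA/2J males (191, 209.6 and 249 CPM) than in DBA/2J females, without overlap (0.64 ± 0.13, adjusted p = 0.000211). Among the uptake genes, Cd36 measured 161, 227 and 286 CPM in C57BL/6J females. That was above the males of the strain, at 94.0, 98.8 and 159 CPM (-1.06 ± 0.28, adjusted p = 0.00389), and above DBA/2J females, at 53.4, 85.6 and 111 CPM (-1.36 ± 0.28, adjusted p = 9.48e-05), in both cases without overlap. Cd36 is also made by endothelial cells and macrophages. Summed endothelial markers had medians of 379 CPM in C57BL/6J females, 366 CPM in C57BL/6J males and 315 CPM in DBA/2J females on Control, with overlapping ranges. Summed Kupffer cell and macrophage markers had medians of 235, 168 and 241 CPM in the same groups. Of their 8 genes 2 were lower in C57BL/6J males than in the females (median -0.78) and 2 in DBA/2J than in C57BL/6J females (median -0.30), and the part of either list was not tested. Fabp1 and Fabp2 were higher in DBA/2J than in C57BL/6J males. Fabp1 measured 2857, 3114 and 3878 CPM against 1376, 1544 and 2061 CPM (1.00 ± 0.23, adjusted p = 0.000399), and Fabp2 measured 88.3, 99.4 and 107 CPM against 49.3, 54.5 and 58.7 CPM (0.88 ± 0.16, adjusted p = 5.5e-06), both without overlap. Fabp2 is best known from intestine, and 1 of the 2 intestinal markers tested was also higher in DBA/2J males. Their summed level, nearly all Apoa4, on Control had a median of 1590 CPM in DBA/2J males beside 352 CPM in those of C57BL/6J, and its part was not tested.

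Of the carnitine shuttle, Slc25a20, the carrier that exchanges acylcarnitine for carnitine across the inner membrane, differed by strain in both sexes. It measured 130.1, 148 and 155 CPM in C57BL/6J and 96.6, 105 and 109 CPM in DBA/2J males, and 99.5, 131 and 147 CPM and 80.2, 85.6 and 98.6 CPM in females. Every C57BL/6J animal lay above every DBA/2J animal of its sex, with differences of -0.48 ± 0.06 in males (adjusted p = 1.15e-08) and -0.58 ± 0.07 in females (adjusted p = 2.67e-11). Slc25a20 and Cpt2 were higher in males than in females of DBA/2J (0.25 ± 0.06 and 0.25 ± 0.09, adjusted p = 0.00342 and 0.0418), but with library totals as the scaling these signs turned, to -0.034 and -0.038. Cpt1a was highest in C57BL/6J females, with a median of 972 CPM, beside 805 CPM in the males (-0.29 ± 0.09, adjusted p = 0.0231) and 764 CPM in DBA/2J females (-0.38 ± 0.10, adjusted p = 0.00108). Crat was lower in DBA/2J males than in C57BL/6J males (-0.38 ± 0.13, adjusted p = 0.0141).

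The enzymes of mitochondrial β-oxidation differed by less. Hadha (0.37 ± 0.10, adjusted p = 0.00225), Hadhb (0.45 ± 0.10, adjusted p = 0.000231), Acadm (0.27 ± 0.11, adjusted p = 0.0403) and Decr1 (0.30 ± 0.10, adjusted p = 0.0236) were higher in DBA/2J than in C57BL/6J males. None of these passed in females. Acadl, the long-chain dehydrogenase, was lower in males than in females of both strains (-0.33 ± 0.09 in C57BL/6J and -0.37 ± 0.09 in DBA/2J, adjusted p = 0.00394 and 0.00135). Acads, the short-chain enzyme, was higher in C57BL/6J males than females (0.46 ± 0.11, adjusted p = 0.00179). Acaa2, the thiolase, was higher in DBA/2J males (0.36 ± 0.08, adjusted p = 0.000489), as were Hadhb (0.31 ± 0.10, adjusted p = 0.0231) and Decr1 (0.29 ± 0.10, adjusted p = 0.0445). Acadvl, the very-long-chain dehydrogenase, was lower in DBA/2J than in C57BL/6J females (-0.19 ± 0.07, adjusted p = 0.0373). Etfdh, Hadh and Eci1 passed in none of the strain, sex or diet comparisons.

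Peroxisomal members differed by strain and sex in several ways. Ehhadh was lower in C57BL/6J males than in C57BL/6J females, at 482, 580.2 and 823 CPM against 1043, 1769 and 2157 CPM, without overlap (-1.48 ± 0.23, adjusted p = 1.43e-06). It was also lower in C57BL/6J males than in DBA/2J males, at 618, 1446 and 1937 CPM (DBA/2J minus C57BL/6J 1.19 ± 0.23, adjusted p = 2.72e-05), with 1 low DBA/2J animal inside the C57BL/6J range. Eci2 was lower in DBA/2J in both sexes (-0.25 ± 0.07 in males and -0.44 ± 0.07 in females), and so was Pex11a (-0.58 ± 0.19 and -0.79 ± 0.19). Their adjusted p ranged from 1.8e-06 for Eci2 in females to 0.0151 for Pex11a in males. Acaa1a was higher in males of both strains, by 0.38 ± 0.09 in C57BL/6J and 0.34 ± 0.09 in DBA/2J (adjusted p = 0.00188 and 0.00582). Acaa1b (0.63 ± 0.20, adjusted p = 0.0169) was higher in DBA/2J males, and so was Eci2 (0.25 ± 0.07, adjusted p = 0.0103), whose sign turned to -0.031 with library totals.

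Acot3 and Acot4 showed a low level in 1 group. Acot3 measured 4.90, 18.6 and 73.9 CPM in DBA/2J males on Control, against 79.6, 151 and 222 CPM in DBA/2J females and 80.3, 96.6 and 173 CPM in C57BL/6J males. It overlapped neither. The differences were -2.65 ± 0.48 (male minus female, adjusted p = 2.66e-05) and -2.12 ± 0.48 (DBA/2J minus C57BL/6J, adjusted p = 0.000291). Acot4, its neighbour, measured 43.8, 59.8 and 135 CPM in DBA/2J males, overlapping both with its highest animal, and differed by -1.18 ± 0.25 (adjusted p = 0.000304) and -1.12 ± 0.25 (adjusted p = 0.0003). Both stayed low in these males on Low Protein, at medians of 36.1 and 83.2 CPM. Of the 50-base words of Acot3, 19.1% also occur in another gene, mainly Gm49366, so its level is less certain. Between the sexes of C57BL/6J, Acot2 was lower in males, at 9.72, 12.5 and 14.6 CPM against 18.3, 29.5 and 38.9 CPM in females. The groups did not overlap (-1.25 ± 0.28, adjusted p = 0.000577). Acot1 was lower in these males too (-0.74 ± 0.27, adjusted p = 0.0428).

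Of the remaining targets, Fitm1 had the steepest differences. It measured 8.72, 11.7 and 17.0 CPM in C57BL/6J males and 0.294, 1.47 and 6.75 CPM in C57BL/6J females, and 2.06, 3.23 and 6.11 CPM and 0.102, 0.185 and 0.491 CPM in DBA/2J males and females. Males were higher in both strains without overlap (2.23 ± 0.37 and 3.81 ± 0.49, adjusted p = 6.47e-06 and 5.39e-09). DBA/2J was lower in both sexes (-1.72 ± 0.37 in males and -3.31 ± 0.49 in females, adjusted p = 0.000141 and 1.15e-07). Levels in DBA/2J females were so close to 0, with 0 counts in the lowest library on Low Protein, that the size of these folds is imprecise. Bdh1 was higher in DBA/2J, at 315, 322 and 386 CPM against 166, 175 and 183 CPM in males without overlap (0.92 ± 0.15, adjusted p = 9.93e-07) and by 0.48 ± 0.15 in females (adjusted p = 0.00952). Vnn1 was higher in DBA/2J than in C57BL/6J males (0.71 ± 0.22, adjusted p = 0.00961). Angptl4 (-0.57 ± 0.19, adjusted p = 0.0168) and Aldh3a2 (-0.55 ± 0.21, adjusted p = 0.0422) were lower in DBA/2J than in C57BL/6J females.

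Several of these Control calls did not hold when 1 library was left out, for most of them any of several libraries. In males, the strain call of Crat ended without C57BL/6J replicate 3, and that of Acadm without C57BL/6J replicates 2, 4 or 6 or DBA/2J replicates 3, 4 or 6. In females, Bdh1 ended without C57BL/6J replicate 1, and Angptl4 without C57BL/6J replicate 6 or DBA/2J replicate 4. Acadvl ended without any of C57BL/6J replicates 3 to 6 or DBA/2J replicates 2, 4 and 5, and Aldh3a2 without any of these or DBA/2J replicates 1 and 6. Between the sexes of C57BL/6J, Cpt1a ended without male replicates 2 or 4 or female replicates 5 or 6, and Acot1 without male replicates 1, 2, 4 or 6 or female replicates 2, 4, 5 or 6. Between the sexes of DBA/2J, Fabp2 (0.49 ± 0.15, adjusted p = 0.0191) ended without female replicates 2 or 5, and Hadhb without these or male replicates 3 or 4. Cpt2 ended without male replicates 2, 3, 4 or 6 or female replicates 1, 2, 5 or 6, and Decr1 without male replicates 1, 3, 4 or 5 or the same females. The adjusted p in these cases ran up to 0.132 for Acadvl.

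The members also varied together from animal to animal. After the mean of each of the 12 groups was removed from log2(CPM + 0.5), 503 of 528 pairs had a positive Pearson r over the 72 libraries, with a median r of 0.46. A within-group permutation test (100000 shuffles, two-sided, adjusted over the 528 pairs) gave an adjusted p below 0.05 for 410 positive pairs and 1 negative pair. Among all 19362 genes the median r over pairs was -0.002, and 0.00216% of pairs exceeded 0.8, a level reached by 20 member pairs. The closest pairs were Hadha and Hadhb, subunits of 1 enzyme transcribed from neighbouring starts (r = 0.915, Spearman's rho = 0.859), Acot3 and Acot4 (r = 0.900, rho = 0.925), and Fabp1 and Decr1 (r = 0.893, rho = 0.815). Each had the smallest permutation p that 100000 shuffles can give, 1e-05 (adjusted p = 3.24e-05 for r and 3.97e-05 for rho). Without the 2 libraries farthest from the median of the first gene, r was 0.883, 0.891 and 0.849. Within C57BL/6J it was 0.958, 0.919 and 0.920 and within DBA/2J 0.807, 0.878 and 0.825. Cpt1a and Angptl4 stood apart, with median r of 0.15 and 0.09 to the other members. Ppara had a median r of 0.40, and Decr1, Eci1, Hadhb and Hadha had the highest, 0.66. These values rest in part on the 2 libraries of C57BL/6J females in which many members were low, Low Protein replicate 1 and Control replicate 1. Without both, 471 pairs were positive, the median r was 0.33, 5 pairs exceeded 0.8, and 292 positive and 4 negative pairs had an adjusted p below 0.05 by the same permutation test. The 3 closest pairs then had r of 0.875, 0.890 and 0.838. The median r to the other members was 0.16 for Ppara, 0.070 for Cpt1a, 0.039 for Angptl4 and 0.49 to 0.53 for Decr1, Eci1, Hadhb and Hadha. Every pair shares the same livers, their depth and scaling, and the makeup of the tissue piece, whose part in r was not tested.

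**Figure D5:**
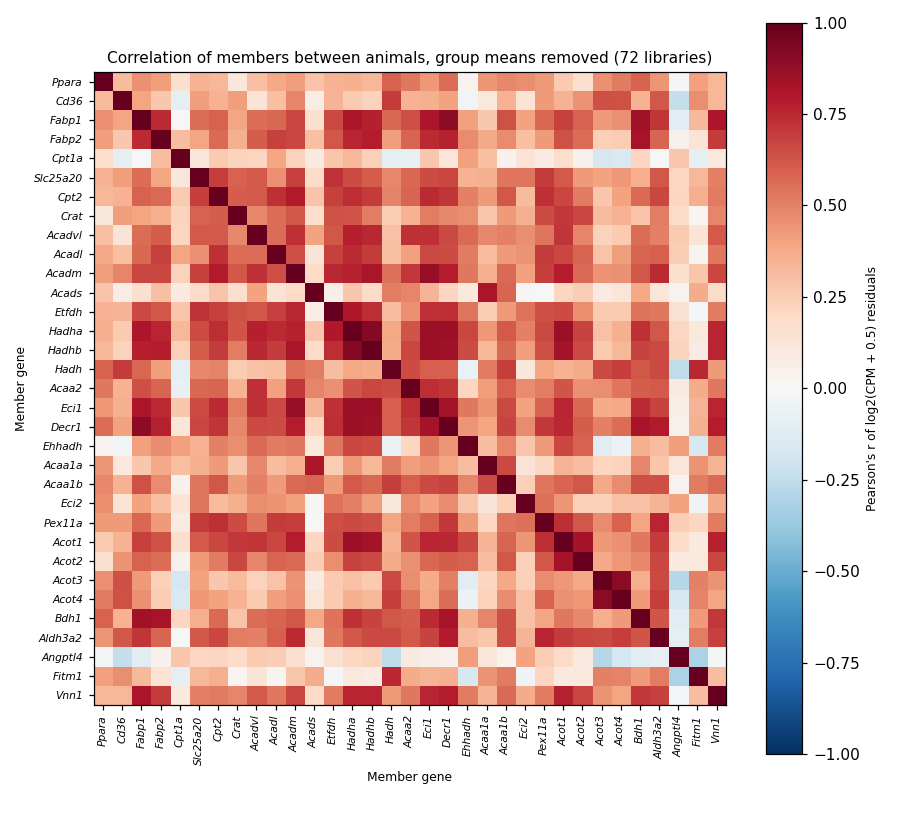
Pearson's r between members over 72 libraries after removing group means of log2(CPM + 0.5); both axes list the 33 members in order of role and colour gives r from -1 to 1. Most cells are positive (503 of 528 pairs), and the Cpt1a and Angptl4 lines are the palest.

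Other genes of fatty acid oxidation and PPARA signalling, a list of 52, were all tested in the same comparisons. Like the members, this list was chosen with earlier results of these data known, so its counts are not independent support. In C57BL/6J males on Low Protein 10 rose and 1 fell (4.08% and 5.70% of all genes), with a list median of 0.11 beside 0.01 for all genes. Pdk4, a kinase that shuts off pyruvate oxidation, measured 3.60, 6.09 and 8.56 CPM on Control and 15.9, 70.0 and 211 CPM on Low Protein, without overlap (3.67 ± 0.52, adjusted p = 8.87e-07). Cyp4a31, an ω-hydroxylase, measured 21.2, 28.3 and 36.3 CPM and 58.2, 109 and 121 CPM (1.81 ± 0.30, adjusted p = 1.88e-05), also apart. Fgf21, a fasting hormone of the liver (2.00 ± 0.41, adjusted p = 0.000557), the lipid droplet protein Cidec (1.94 ± 0.45, adjusted p = 0.00233), the carnitine importer Slc22a5 (0.53 ± 0.14, adjusted p = 0.00623) and Cyp4a14 (0.70 ± 0.21, adjusted p = 0.0201) rose as well. In C57BL/6J females 4 rose and 0 fell (1.47% and 1.78% of all genes), led by Cyp4a32 (1.36 ± 0.22, adjusted p = 7.5e-05), the peroxisomal Crot (0.52 ± 0.15, adjusted p = 0.0311) and Amacr (0.23 ± 0.07, adjusted p = 0.0365). The Cyp4a genes are close paralogs, and the split of reads among them is uncertain. In DBA/2J none of the 52 passed on Low Protein, and on Medium Protein none passed in any group.

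As with Acot2 and Ehhadh, the Low Protein effects of Pdk4 (-2.78 ± 0.69, adjusted p = 0.0147), Fgf21 (-2.33 ± 0.56, adjusted p = 0.0105) and Cyp4a31 (-1.90 ± 0.42, adjusted p = 0.00515) were lower in DBA/2J than in C57BL/6J males, 3 of 52 with 1 higher, beside 0.909% and 1.97% of all genes. The Pdk4 effect was also larger in males than in females of C57BL/6J (3.36 ± 0.69, adjusted p = 0.00226). On Control 17 of the 52 were lower and 7 higher in DBA/2J than in C57BL/6J males, beside 15.6% and 14.9% of all genes. In females 21 were lower and 7 higher, beside 14.0% and 13.8%. Between sexes, Acsl1, which activates fatty acids, and Phyh, which starts α-oxidation, were higher in males of both strains. The values for Acsl1 were 1.12 ± 0.11 in C57BL/6J and 0.90 ± 0.11 in DBA/2J (adjusted p = 5.19e-13 and 5.27e-10).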

How the data were processed

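Poly(A) RNA of 72 livers was sequenced as stranded libraries and the reads of 2 lanes were merged, per the labels' protocols. The authors deposited RSEM expected counts per gene (11.6% of values are not whole), not normalized, and a comparison table of 17575 genes with log2 fold changes, p-values with their Benjamini-Hochberg adjusted values, and an F score per gene that was not used. R 3.4.3, RSEM, limma and edgeR appear in the submitters' processing notes. The aligner and build: not given in the sources used here.

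Expected counts were rounded and genes kept by filterByExpr (19362 of 51912). They were scaled by TMM and fitted with 12 group means by edgeR's quasi-likelihood test (edgeR 4.0.16, R 4.3.3), two-sided, with Benjamini-Hochberg adjustment over all genes and a threshold of 0.05, for 18 comparisons. The SE is the log2 fold change divided by the square root of F. Levels are CPM, counts scaled to a common total per library with the TMM factors. The fit was tested on simulated data. Totals of 26.9 to 38.4 M counts per library give low counting error for the members other than Fitm1. For these the spread between animals (common biological coefficient of variation 0.207) sets the precision. Fitm1 fell to 0 counts in its lowest library, so counting error adds to its spread. Libraries within a group held no identical pairs.

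Groups came from the sample labels. Every member is named with values or within a range. Of 52 other pathway genes, up to 6 called genes with the smallest p were named for Low Protein in C57BL/6J males and up to 3 for other comparisons. The members and lists were chosen with earlier results of these data known. Marker lists covered hepatocytes, Kupffer cells and macrophages (108 to 976 CPM summed), endothelial cells (277 to 436), stellate cells (298 to 601), cholangiocytes (8.36 to 62.6), adipocytes (11.4 to 185), skeletal muscle, intestinal epithelium (135 to 2718), red blood cells (44.6 to 478), B and T cells (13.7 to 65.8) and ribosomal-like RNA (0.0592% to 0.277% of counts). Alternatives were other scalings and filters, terms for the position row and the animal code letter, fits on the compared groups only, limma-voom (limma 3.58.1), DESeq2 1.42.0 and fits without single or doubtful libraries. Leaving out the libraries rich in AY036118, CT010467.1 and Lars2, and those in which many members stood apart, was chosen after seeing the data, also for the correlations. Position codes run in the order of the groups, so position and group cannot be told apart fully.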

Additional observations from a re-analysis of the deposited data

Results flagged for a closer look

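Each group of 6 animals was searched, for every member, for a lowest or highest animal far from the others by Dixon's criterion at the 95% level. Of 396 group and member combinations 34 (8.59%) held such an animal, where chance gives about 1 in 20. The libraries named here are single animals, with levels in CPM.

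Low Protein replicate 1 of C57BL/6J females stood low for 10 members across most roles. It had 112.8 CPM of Ppara, 33.6 of Fabp2, 308 of Acadvl, 151 of Acadl and 277 of Acadm. It also had 279.8 CPM of Etfdh, 385 of Acaa2, 48.2 of Eci1, 59.9 of Pex11a and 321 of Aldh3a2. Control replicate 1 of C57BL/6J females stood low for 6 members, with 89.6 CPM of Cpt2, 304 of Acadm, 50.3 of Eci1, 153 of Decr1, 26.8 of Acot3 and 47.5 of Vnn1. Both are the female libraries described above with their Kupffer cell marker levels.

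The remaining animals stood apart for 1 to 3 members each. In DBA/2J females, Control replicate 3 stood high for Ppara (181 CPM), Slc25a20 (98.6 CPM) and Eci2 (187 CPM). Control replicate 6 had 191 CPM of Hadh and 20.3 CPM of Acot2, and Medium Protein replicate 5 had 582 CPM of Acaa2. In C57BL/6J males, Control replicate 5 had 159 CPM of Cd36 and 173 CPM of Acot3, and Control replicate 3 had 412 CPM of Etfdh and 407 CPM of Hadha. Medium Protein replicates 5, 2 and 3 had 43.5 CPM of Fabp2, 1201 CPM of Cpt1a and 323 CPM of Etfdh. Low Protein replicate 1 had 72.1 CPM of Acads and replicate 4 had 450.3 CPM of Etfdh. In C57BL/6J females, Medium Protein replicate 5 had 676 CPM of Cpt1a. In DBA/2J males, Control replicate 4 had 386 CPM of Bdh1 and Medium Protein replicate 3 had 281 CPM of Vnn1.

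The Low Protein effect differed between groups, by the test of the difference itself, for 3 members. Between males and females of C57BL/6J the difference was 1.23 (log2) for Acot1 and 1.36 for Acot2. Between DBA/2J and C57BL/6J males it was -1.68 for Ehhadh and -1.63 for Acot2.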

How the results depend on the processing

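The calls in the text rest on the TMM scaling, the shared spread of 12 groups and few marginal genes. Shares of all genes called are given for the main fit only, so counts under the alternatives have none beside them. The counts of members called on Low Protein in C57BL/6J males (7) became 22 with library totals and 13 with the compared groups only (5 to 9 without single libraries). In C57BL/6J females the 2 called members became 0 with the compared groups only, and 1 with library totals, no filter, the row letter term, the animal code letter term, without the 4 libraries rich in AY036118, CT010467.1 and Lars2, or without the 2 libraries in which many members stood apart (1 to 4 without single libraries). The 4 members of the mean Low Protein effect became 11 with library totals (4 to 5). The 2 members whose effect differed between the sexes of C57BL/6J became 8 with library totals, 1 with no filter, the row letter term, the animal code letter term or limma-voom, and 0 with the compared groups only or without the 4 libraries (0 to 5). The 2 members whose effect differed between the strains in males became 5 with library totals, 4 with a filter of 1 CPM in 6 libraries, 7 with the compared groups only, 4 with DESeq2 and 5 without the 2 libraries (2 to 4). In females the 0 became 1 with DESeq2. The 9 members that differed between the sexes of C57BL/6J on Control became 18 with library totals (7 to 12). Without single libraries the members called ran from 15 to 17 for strain in males, 8 to 11 for strain in females and 10 to 15 for sex in DBA/2J, and stayed at 0 in the other comparisons.

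With library totals the sign turned for Eci2 between the sexes of C57BL/6J (-0.28) and for Slc25a20 (-0.034), Cpt2 (-0.038) and Eci2 (-0.031) between the sexes of DBA/2J. Under that scaling the median of all genes moved to 0.24 in the Low Protein effect between the sexes of C57BL/6J, to 0.11 in that of DBA/2J and to -0.17 between the strains in males. The share of all calls that were higher went from 47.9% to 90.5% for the mean Low Protein effect, from 40.6% to 94.8% for its difference between the sexes of C57BL/6J and from 68.5% to 10.8% for that between the strains in males (33.3% to 16.7% in females). It went from 50% to 73.7% for Low Protein in DBA/2J males, from 74.7% to 56.5% in DBA/2J females and from 72.8% to 91.0% for Medium Protein in C57BL/6J males. On Control it went from 48.9% to 67.0% for strain in males, from 55.8% to 5.32% for sex in C57BL/6J and from 57.1% to 7.59% for sex in DBA/2J. The cause of these changes was not tested beyond the shares of ribosomal loci given above.

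No paired analysis was possible because replicate numbers were given in accession order and animal codes do not recur within a strain and sex, so no number or code marks a mouse shared by groups. Animals of a group whose codes share a number were treated as independent, as the labels do not say what the number marks. Without the 2 libraries in which many members stood apart, the member pairs with r above 0.8 went from 20 to 5.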
